A study of Homo sapiens with 8 samples.

Results

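YTHDF2 contacts were examined in the shortest protein-coding genes, those that span less than 5 kb of genome from start to end with introns included. Members were the distinct positions of the deposited YTHDF2 site list that lay in exactly 1 protein-coding gene, on that gene's strand, where the gene spanned less than 5 kb. They were 2424 of the 37613 distinct positions and 6.78% of the 35727 positions that could be given to 1 gene of any length. They lay in 615 genes, 1195 positions on the plus strand and 1229 on the minus strand. The shortest bound gene spanned 388 nt.

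The study mapped YTHDF2 by iCLIP2 in HEK293T, an established human embryonic kidney cell line labelled as wild type. In iCLIP2, ultraviolet light joins a protein to the RNA it touches, an antibody pulls the protein down, and cDNA synthesis stops at the joined nucleotide. Of 8 libraries, 4 were made after 12 h in 20 µM STM2457, which inhibits the m6A writer METTL3, and 4 after 12 h in the solvent, 0.2% DMSO. The list gives 1 score for each row and no value for any library, so STM2457 and DMSO could not be compared and replicate spread and read depth are unknown. The sources used here do not say whether a row rests on libraries of 1 group or of both. The list holds no RNA levels, so the cell line could not be checked against its markers, and the number and score of sites could not be set against how strongly a gene is expressed. All differences below are descriptions of 1 list, with exact binomial 95% intervals that cover counting error only. Intervals over sites treat every site as independent. Sites of the same gene are not, so these intervals are likely too narrow.

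N6-methyladenosine (m6A) is placed on mRNA by the METTL3-METTL14 enzyme, which methylates an adenosine that follows a purine and precedes a cytosine. YTHDF2 binds m6A in the cytoplasm and recruits deadenylases, which shorten the poly(A) tail and start decay of the mRNA. In mammalian mRNA, m6A is known to be sparse close to exon junctions and frequent in long exons and around stop codons. Many of the shortest genes have few introns or none, among them JUN, SOX4 and CEBPB, so that nearly the whole gene can appear in the mature mRNA.

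Sequences are shown first because they carry the one feature that every readable site shared. They come from the RefSeq table of 300-base windows around gene starts (GRCh38.p14, 250 bases before to 50 after each start), whose main chromosomes are those of the files' build GRCh38.p12. Of the member sites, 34 in 27 genes lay in such a window with at least 2 bases on each side, either in the window of their own gene or in that of a neighbouring or antisense gene. Each line gives 21 bases of the RNA strand, 5′ to 3′, with the listed nucleotide in the middle of the 5 capital letters.
UQCC3, chr11:62672272-62672292, plus strand: caaaccctGGACTgactgctt
PCBP1, chr2:70088411-70088431, plus strand: cgattcaaGGACAacacacca
CEBPB, chr20:50192159-50192179, plus strand: cgccggcaAAACTttggcact
POLR2I, chr19:36114831-36114851, minus strand: gcccgacgGGACTtacgagcc
AUP1, first site, chr2:74529259-74529279, minus strand: cgtagtgcGGACCatgtgtgc
AUP1, middle site, chr2:74529219-74529239, minus strand: cggcaggaGGACTccggactc
AUP1, last site, chr2:74529212-74529232, minus strand: aggactccGGACTccgggatc
MRPS34, upstream site, chr16:1772635-1772655, minus strand: gctttgcaGAACTtggaccac
MRPS34, downstream site, chr16:1772629-1772649, minus strand: cagaacttGGACCacgggaag
ATP5MC1, chr17:48892810-48892830, plus strand: gagcgctgAGACCaagggcta
NDUFB11, chrX:47145014-47145034, minus strand: aagatgaaAGACTagcggaag
SAC3D1, chr11:65041053-65041073, plus strand: gcgtagctGGACTacaacgca
RANBP6, chr9:6015607-6015627, minus strand: ggtagcttTGACAgagcgcaa
SOX4, chr6:21593763-21593783, plus strand: agcaagagAAACTgtgtgtga
SNRPD2, chr19:45691909-45691929, minus strand: cgcggaggAAACGggagtgaa

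The listed nucleotide was A in 34 of 34 readable member sites, and it was the middle letter of AAC or GAC in all 34 (100%, 95% interval 89.7 to 100). GAC held 22 of them and AAC 12. Read 1 nt upstream or 1 nt downstream of the listed position, 0 of the 34 places were the middle letter of either motif. That 0 is fixed by the match at the listed position itself and adds no support. In genes of 5 kb or more, 194 of 194 readable sites were likewise the A of AAC or GAC. Sites outside the windows, nearly all of the list, could not be read. Among all A's in the 35116 windows, read on both strands, 10.7% stood in AAC or GAC, and in the windows with a member site 12.4% did. Nearly every window (99.99%) held AAC or GAC somewhere, so the sites share the exact register and not only the presence of the letters nearby. The sources used here do not say whether sites were selected on sequence when the list was made, so a property of binding and a step of list making cannot be told apart.

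The wider context varied. The listed A stood in GGAC in 14 of the 34 member sites (41.2%) and in 37.6% of the readable sites of genes of 5 kb or more. GGACT itself was at 7 member sites (20.6%), against 13.4% in genes of 5 kb or more, and it is found on either strand in 44.2% of all 300-base windows. The last of the 5 letters was G in 4 member sites, as in SNRPD2 above. In AUP1, a lipid droplet protein, the middle and last sites lay 7 nt apart on neighbouring copies of GGACT, and in MRPS34, a mitochondrial ribosomal protein, the listed sites lay 6 nt apart on GAACT and GGACC. These readable sites sit near gene starts (38.2% in the first 10% of their gene's span, against 3.18% of all member sites) and their scores range only from 0.468 to 171. They are therefore a small sample of the members' sequences, chosen by position.

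Fewer short genes carried a site than longer genes did, but by the median those that did carried as many. A site lay in 615 of 3196 protein-coding genes spanning under 5 kb (19.2%, 95% interval 17.9 to 20.7) and in 40.7% of the 16736 genes of 5 kb or more. Here and below, positions where genes overlap are not counted as sites of a gene. The share was 32.1% for spans of 5 to 10 kb and highest, 46.1%, for 30 to 100 kb. The short bound genes had a median of 3 sites with quartiles of 1 and 5, and the longer bound genes a median of 3 with quartiles of 2 and 6. A lone site was found in 159 short genes (25.9%) and in 22.1% of bound longer genes. The 50 short genes with 10 or more sites (8.13%, against 12.8% of bound longer genes) held 566 sites.

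Among the members, the share of genes with a site went up with span. It was 5.50% of genes under 1 kb, 10.3% at 1 to 2 kb, 21.1% at 2 to 3 kb, 27.2% at 3 to 4 kb and 31.6% at 4 to 5 kb. The unbound genes included all short members of some sensory, keratin-associated and immune families. Olfactory receptors, keratin-associated proteins, defensins, type I and III interferons and bitter taste receptors, lists chosen after seeing the data, make up 389 of the short genes, and 0 of them had a site. Taking 3 counts as the limit that a count of 0 allows, the share could be up to 0.771%, for families that were not picked independently of these values. Among the other 2807 short genes 21.9% had a site.

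Sites per kb were high in the short genes, which follows in part from dividing by a short span. The median was 1.04 sites per kb of span in bound short genes (quartiles 0.517 and 2.01), and 0.0904 in bound genes of 5 kb or more. With 1 site in each bound gene these medians would be 0.304 and 0.0269 per kb. Counted over all genes, bound or not, there were 0.298 sites per kb of span under 5 kb, 0.179 at 5 to 10 kb and 0.00284 at 300 kb or more, where introns make up most of the span. Across the 615 short genes the number of sites followed span only weakly (Spearman rho 0.13, across genes, which are not independent replicates).

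**Figure D1:**
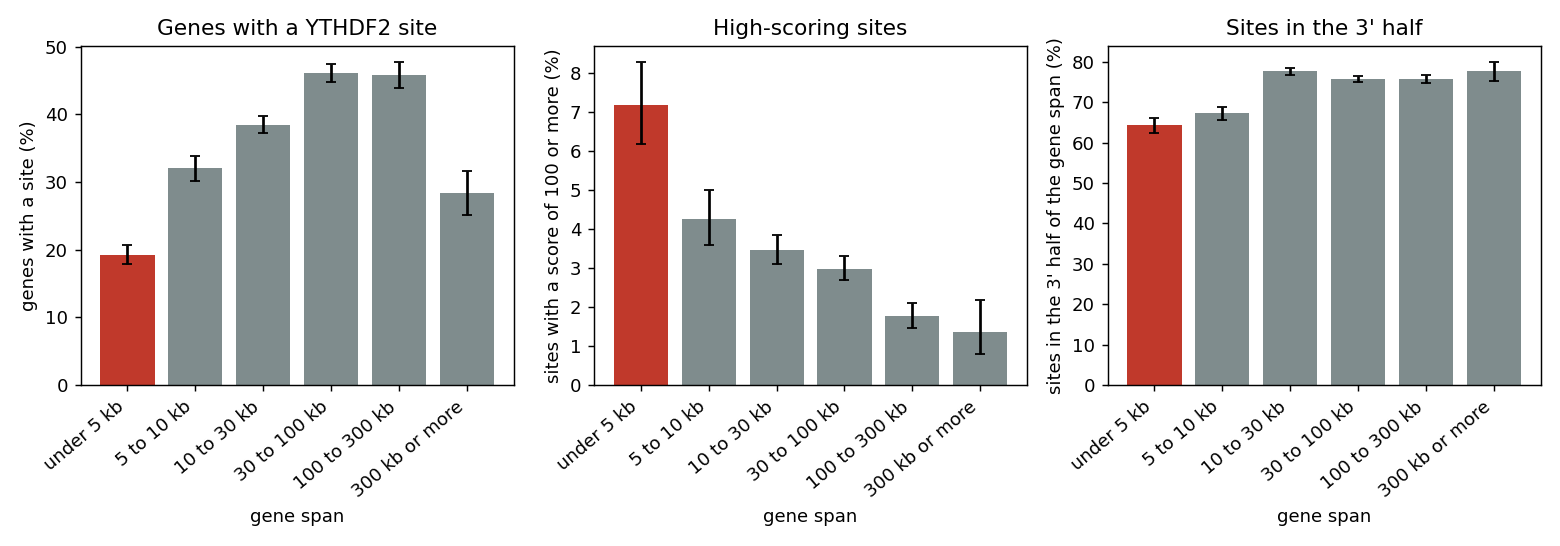
Left, the percentage of protein-coding genes with a YTHDF2 site; middle, the percentage of sites with a score of 100 or more; right, the percentage of sites past the midpoint of the gene span, each by gene span. Bars are values over the whole list and lines are exact binomial 95% intervals. Genes under 5 kb (red) have a site in 19.2% of cases, 7.18% of their sites score 100 or more, and 64.2% of their sites lie past the midpoint.

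Sites in short genes scored higher within the list. The score is the authors' own value, on a scale the sources do not state, and is used only for rank. The median was 10.6 in short genes (quartiles 4.28 and 30.1), against 8.54 in genes of 5 kb or more (quartiles 3.71 and 20.3). As a percentile of the whole list, the median member stood at 56.6 (95% interval 54.5 to 59.6) and the median site of genes of 5 kb or more at 49.6 (49.0 to 50.1). The median percentile was 54.3 at 5 to 10 kb, 51.4 at 10 to 30 kb, 50.2 at 30 to 100 kb and 45.8 at 100 to 300 kb. Scores of 100 or more were given to 174 member sites (7.18%, 6.18 to 8.28) and to 2.92% of sites in genes of 5 kb or more (2.75 to 3.11). Members were 74 of the 357 assigned sites in the top 1% of the list. Within the members, sites in genes under 1 kb stood at a median percentile of 78.2 (58.0 to 84.9, 63 sites) and those in genes of 4 to 5 kb at 53.6 (50.7 to 57.6, 831 sites). Whether RNA level moves with span here was not tested.

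The highest scores belonged to a handful of genes, among them cytoskeletal and heat shock genes. Of the 12 positions that share the list's maximum of 708, 8 lay in 4 short genes. The cytoskeletal actin gene ACTB reached that maximum at each of its 2 sites, chromosome 7 positions 5527743 and 5527533, 2859 and 3069 nt from the start of its 3.45-kb span. Its paralog ACTG1 had 5 sites on chromosome 17. Those at 1271 and 2115 nt from the start were at the maximum, while the others scored 6.91, 31.8 and 152. ACTB thus had only top-ranked sites, and ACTG1 had sites from low to high.

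The HSP70 chaperone genes were as uneven. HSPA8, the constitutive form, had 6 sites, all past the midpoint of its span, with 2 at the maximum and a median score of 247. HSPA1B had 4 sites with a top score of 708 and a median of 439. HSPA1A, the neighbouring and nearly identical stress-induced gene on chromosome 6, had 6 sites with a top score of 80.1 and a median of 4.54. Copies this alike share reads, and the sources used here do not say how reads were divided among actin, tubulin or HSP70 copies, so the split between HSPA1A and HSPA1B is uncertain. Among tubulins TUBB4B had 8 sites, all past the midpoint, 2 of which scored 628 and 650 at 1315 and 1426 nt from the start. TUBB2A and TUBB2B, a close pair, had 3 sites each, within 76 nt in TUBB2A and 802 nt in TUBB2B.

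Genes outside these families also held very high scores. MARCKSL1, a membrane protein of the MARCKS family, reached 647 at 1676 nt from its start, with 3 further sites at 179, 27.0 and 6.72. DDIT4, a stress-induced inhibitor of mTORC1, had 5 sites, with scores of 47.2, 178, 91.0, 417 and 20.4 from 5′ to 3′. H2AZ1, the histone variant H2A.Z, had 1 site at 417 and 3 between 9.26 and 11.8. JTB had its 2 strongest sites, at 399 and 386, only 18 nt apart, at 3042 and 3060 nt. SEPHS2, which makes the selenium donor for selenoproteins, had 11 sites with scores from 27.7 to 416 and a median of 108. IMP3, a component of the U3 ribosome-assembly particle, had 7 sites from 23.4 to 376 in a span of 1.13 kb, and the histone gene H2AC11, which has close copies, had a lone site at 362. Across the 615 genes the highest score went up with the number of sites (Spearman rho 0.49), and the median score hardly did (0.058). The highest of more values tends to be higher by itself, so the 0.49 follows at least in part from the counts.

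**Figure D2:**
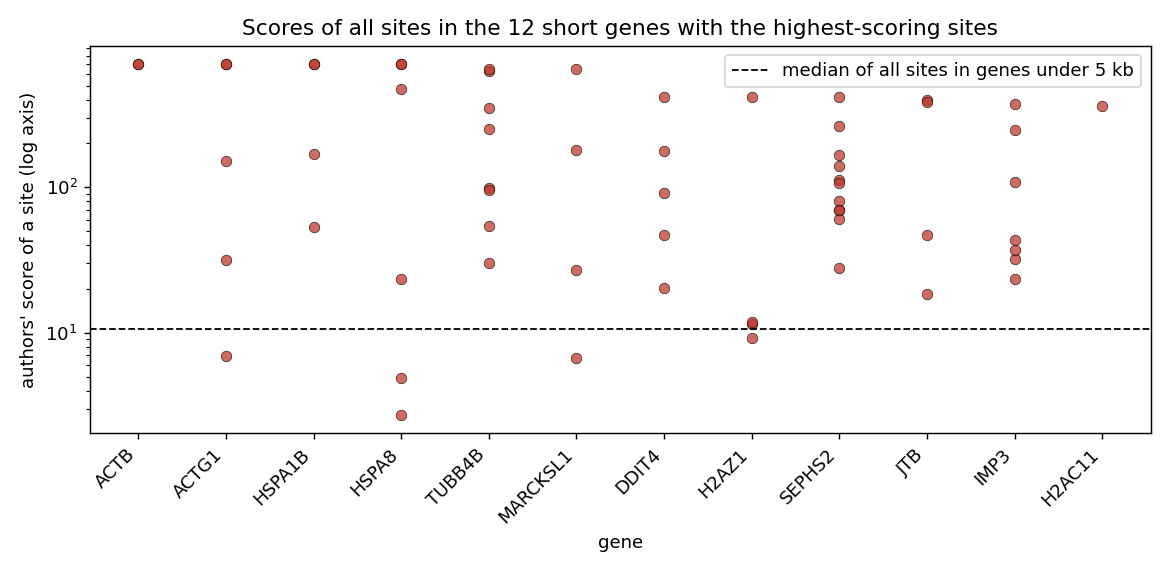
The authors' score (log axis) of every site in the 12 short genes that hold the highest-scoring sites, ordered by that score. Points are sites and the dashed line is the median of all sites in genes under 5 kb, 10.6; both sites of ACTB lie at the maximum, and every site of ACTB, HSPA1B, TUBB4B, DDIT4, SEPHS2, JTB, IMP3 and H2AC11 lies above the line.

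The genes with the most sites were a different set, and several are known to lack introns. HPS6, a subunit of the BLOC-2 complex that builds lysosome-related organelles, and RANBP6, a relative of the importins, had 17 sites each. The HPS6 sites lay on chromosome 10 from 102066206 to 102067850, between 858 and 2502 nt of a 2.69-kb span, with scores from 1.32 to 60.6. The RANBP6 sites lay on chromosome 9 from 6012436 to 6015617. They began 8 nt from the start, with the TGACA site printed above, and reached 3189 nt of a 4.60-kb span, with scores from 0.165 to 23.2. In HPS6 9 of the 17 sites had a neighbour within 50 nt, and in RANBP6 2 of the 17 did.

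SOX4, an HMG-box transcription factor, had 16 sites in 2 stretches. The first 8 began 23 nt from the start of its 4.87-kb span and ended in the first 1 kb, and the other 8 lay between 2022 and 3358 nt. Its highest score, 108, was at 310 nt, in the first stretch. FJX1, the human relative of the Drosophila Golgi kinase four-jointed, had 15 sites between 412 and 2102 nt of 2.41 kb, with a top score of 219 at 1686 nt. TMEM115, a Golgi protein, had 12 sites on chromosome 3, 7 before the midpoint of its span and 5 past it, near the 3′ end.

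CCDC71 had 13 sites, all past the midpoint, within 1177 nt. KBTBD7, an adaptor of a CUL3 ubiquitin ligase, also had 13, but all of them before the midpoint, between 949 and 2246 nt of 4.74 kb. ZNF703, a transcriptional repressor, had 13, of which 8 were past the midpoint. NKX2-5, a homeobox factor best known from the heart, had 12 with 10 past the midpoint, and CENPB, which binds centromeric satellite DNA, had 12 with 9 past it. SOX12 had 12 with 5 past the midpoint, and CCDC8, part of the 3M complex named for a growth disorder, had 12 with 4 past it.

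**Figure D3:**
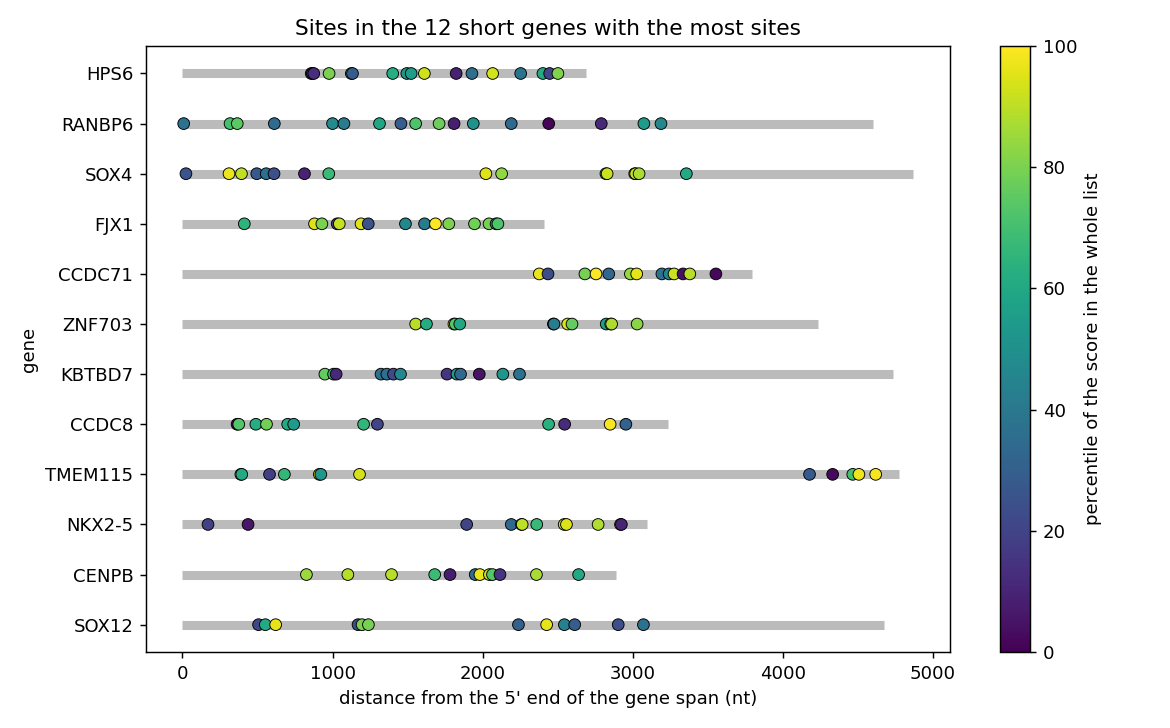
Sites in the 12 short genes with the most sites, as distance in nt from the 5′ end of the gene span (grey bar), coloured by the percentile of the score in the whole list. The sites of CCDC71 all lie past the midpoint of the bar and those of KBTBD7 all before it, while those of SOX4 and TMEM115 fall into 2 stretches.

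The densest genes, counting those with at least 5 sites, were very short. CCDC85B had 9 sites in 0.963 kb (9.35 per kb), in a group of 4 at 332 to 446 nt and a group of 5 at 775 to 896 nt. SF3B5, a subunit of the SF3B splicing complex, had 6 in 0.69 kb (8.70 per kb), with a top score of 231, and SDHAF1, an assembly factor of succinate dehydrogenase, had 8 in 1.13 kb (7.11 per kb). HPS6 (6.32 per kb), FJX1 and the tubulin-folding cofactor TBCC (6.23 per kb each), IMP3 (6.18) and UQCC4 (6.02) followed.

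Along the gene, sites of short genes leaned to the 3′ side, but less than in longer genes. Past the midpoint of the span lay 1557 member sites (64.2%, 95% interval 62.3 to 66.1), against 75.5% in genes of 5 kb or more and 67.3% at 5 to 10 kb. The last 10% of the span held 12.0% of member sites and 41.4% of the sites in genes of 5 kb or more. The first 10% held 3.18% and 6.84%. The fullest of the 10 equal parts of the span was the ninth in short genes, with 363 sites (15.0%), and the last in genes of 5 kb or more. Because introns are part of the span, and are longer in long genes, these parts do not match in mature mRNA, and exons were not used here. Counted in nucleotides, the median member site lay 1130 nt before the end of its gene, and 24.8% lay within the last 500 nt against 8.83% within the first 500 nt. In spans under 1 kb these end windows overlap.

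Scores of member sites were lowest at the 5′ end. The median percentile of member sites was 39.8 in the first 10% of the span and between 52.3 and 62.3 in the other 9 equal parts. The first part was also the lowest at 5 to 10 kb, at 41.9, and over all genes of 5 kb or more, at 47.1. In no single class of 10 kb or more was it the lowest. At 10 to 30 kb it was 46.6, with 45.9 in the fifth part. At 30 to 100 kb it was 49.7, with 44.0 in the seventh part. At 100 to 300 kb it was 45.3, with 40.9 in the seventh part. At 300 kb or more it was 48.3, with 37.3 in the fourth part. In 324 of the 456 short genes with 2 or more sites (71.1%) the highest-scoring site was past the midpoint, where 63.9% of those genes' sites lay. In the 199 with 5 or more sites these shares were 66.8% and 60.2%. The first share counts each gene once and the second counts sites, so genes rich in sites weigh more in the second. The 2 are therefore not directly comparable.

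**Figure D4:**
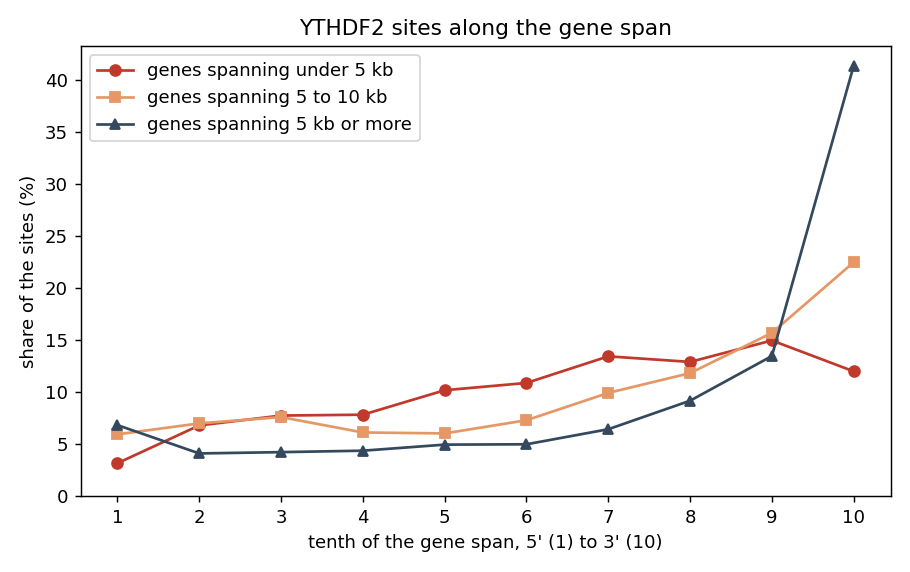
Share of sites (%) in each of 10 equal parts of the gene span, from the 5′ end (1) to the 3′ end (10), for genes spanning under 5 kb, 5 to 10 kb, and 5 kb or more. Genes under 5 kb hold 12.0% of their sites in the last part and genes of 5 kb or more hold 41.4%.

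Individual genes departed from this lean in both directions. Of the 199 short genes with 5 or more sites, 44 had every site past the midpoint and 16 had none there. The sites of ZIC2, a zinc finger developmental factor, all lay between 398 and 1238 nt of 4.98 kb, and those of SMIM10L1 between 586 and 931 nt of 4.82 kb. SMIM10L1 had 2 further positions nearer its start, with scores of 18.2 and 38.9, which were not counted because PRH1 overlaps there. HOXD10 had 4 of 7 in its first 422 nt and the other 3 between 2427 and 2778 nt of 3.16 kb. At the other end, the 5 sites of MRPL36, a mitochondrial ribosomal protein, all lay between 2707 and 2979 nt of 3.05 kb and those of CENPX, a kinetochore and DNA repair protein, between 3667 and 4010 nt of 4.18 kb. SAC3D1 had 4 of 6 sites between 3576 and 3773 nt of 3.90 kb, with scores of 26.1 to 86.8, and lower scores of 5.92 and 8.02 at its 2 upstream sites. MRPL16 also had its 5 sites near the 3′ end, with a top score of 55.7.

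Successive sites of a short gene lay a median of 122 nt apart (quartiles 54 and 262), against 153 nt in genes of 5 kb or more (63 and 489). Gaps in a short gene cannot pass its span, so this difference follows in part from how members were chosen. The median distance to the nearest other site was 93 nt in short genes and 102 nt in genes of 5 kb or more. A neighbour within 50 nt was found for 796 members (32.8%, 31.0 to 34.7) and for 29.5% of sites in genes of 5 kb or more. By class it was 30.4% at 5 to 10 kb (28.8 to 32.0), 28.4% at 10 to 30 kb and 29.1% at 30 to 100 kb. At 100 to 300 kb it was 31.7% (30.6 to 32.8) and at 300 kb or more 26.7%, so the share did not fall steadily with span. The smallest gap was 4 nt in both sets, with 0 gaps of 1 to 3 nt. Chains in which each site lies within 50 nt of the next reached 4 sites in 10 short genes, 3 in 46 and 2 in 207. One such chain of 4 was in ARF6, a small GTPase of endocytic traffic, where 4 sites fell between 1069 and 1138 nt with scores of 229, 78.2, 9.36 and 157. The THAP7 chain lay between 2183 and 2276 nt with scores from 1.94 to 105. KBTBD7 and CCDC85B had chains of 4 as well, in which no score passed 32.2.

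Components of the ribosome were often bound, though unequally. Of 22 short mitochondrial ribosomal protein genes, 20 had a site (90.9%, against 19.2% of all short genes), with a median of 3 sites and a median score percentile of 80.4. MRPS34 had 7 sites within 489 nt and a top score of 225, MRPS2 and MRPS16 had 6 each, and MRPL36 had 5. Of 40 short cytosolic ribosomal protein genes 31 had a site (77.5%), but 19 of those had a lone site and the median was 1. RPL8 had 5, RPS2 had 4, and RPL13A and RPS21 had 3 each, and RPL13A reached a score of 221. Sites of cytosolic ribosomal protein genes lay past the midpoint in 46.3% of cases, and those of the mitochondrial list in 73.9%, against 64.2% of all members. In the respiratory chain and ATP synthase list 11 of 23 short genes were bound (47.8%) with at most 3 sites. NDUFB11, NDUFB10 and the complex I assembly factor NDUFAF3 had 3 each, and COX6A1 had 2. Among genes of 5 kb or more, 70.9% of the mitochondrial ribosomal, 66.7% of the cytosolic ribosomal and 67.1% of the respiratory list had a site.

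Histone and cytoskeletal genes contrasted in site number. Of 63 short replication-dependent histone genes 23 had a site (36.5%, against 19.2% of all short genes), 19 of them a lone one. H3C2, H2BC21, H1-2 and H3C7 had 2 each. Their sites nevertheless stood at a median percentile of 81.4. All 7 short actin and tubulin genes were bound, at a median percentile of 93.6. Of the ubiquitin genes, UBB had 3 sites and RPS27A had 2. Heat shock and DNAJ genes were bound in 6 of 16 cases (37.5%), with DNAJB9 at 4 sites beside the HSP70 genes above.

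Genes known for short-lived mRNAs and genes for adaptors of mRNA decay were also among the bound. Of 18 short immediate early genes 10 had a site (55.6%, against 19.2% of all short genes), with a median of 3. JUN, a subunit of AP-1, had 11 between 58781967 and 58783722 on chromosome 1 with a top score of 163, and IER5 had 9, all before the midpoint of its span. JUND and the MAP kinase phosphatase DUSP1 had 6 each. Of 11 short feedback regulators 5 were bound (45.5%), among them the stress gene GADD45B with 5 sites, the pro-apoptotic PMAIP1 (NOXA) with 3 and a top score of 165, and the kinase gene PIM3 with 3. Sites of this list lay past the midpoint in 94.7% of 19 cases. Of 6 short genes for adaptors of mRNA decay 5 were bound. ZFP36L2, which binds AU-rich elements, had 8 sites with 1 past the midpoint, PNRC1 had 6 with all past it, BTG2 had 3 and PNRC2 a lone site.

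In the SOX, FOX and POU list 12 of 43 short genes had a site (27.9%, against 19.2% of all short genes), with a median of 4, with SOX4 and SOX12 above, POU3F2 at 12 and FOXC1 at 9 with a top score of 236. Of this list's 70 sites 28 lay past the midpoint, and POU3F2 had 1 of 12 there. Homeobox genes were bound in 24 of 48 cases (50.0%), with NKX2-5 and HOXA11 at 12 sites, HOXB13 at 9 and SIX2, a factor of nephron progenitors, at 7, all past the midpoint. In the HES, HEY, ID and bHLH list 7 of 26 were bound (26.9%), led by the Notch target HEY1 with 9, then ID3 with 5, ID2 with 4 and TWIST1 with 2. The bZIP list had 4 of 8 bound, with ATF4, the effector of the integrated stress response, and CEBPA at 7 sites and CEBPB at 5. Zinc finger genes of the ZNF and ZBTB families were bound in 15 of 25 cases (60.0%), and longer genes of that list in 59.9%. Behind ZNF703 came ZNF22 with 9 sites and ZBTB22 and ZNF764 with 5. In the KLF and SP list SP9 was the only one of 8 with a site.

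Enzymes and receptors encoded by compact genes gave high counts in a few members. Of 9 short sulphotransferase and glycosyltransferase genes 4 were bound (44.4%, against 19.2% of all short genes). B3GALT6 and CHST14 had 10 sites, CHST2 had 9, and B4GAT1 had 7 with a top score of 277. Of 35 short receptor genes 8 had a site (22.9%, close to the share of all short genes), and 22.3% of the longer genes of that list did. The frizzled Wnt receptors led, FZD7 with 10 sites, FZD8 with 8 and FZD9 and FZD10 with 7 each. RHOB, an endosomal GTPase, had 8 sites with a median score of 90.8, and RHOV had 7, while RAC3 had 2 and RAB34 a lone site. SEPHS2 led 3 bound genes of 7 in the selenium list, followed by MSRB1 and the glutathione peroxidase GPX1 with 2 sites each. HPS6, BLOC1S4 (6 sites), SNAPIN (3) and BLOC1S1 (1) were all 4 short genes of the lysosome-related organelle list. FJX1 and TBCC were the only short genes of their lists. None of 37 short protocadherin, claudin and leucine-rich repeat surface protein genes had a member site. AMIGO3 and LRRC24 of that list had 5 and 4 sites in spans they share with other genes, which were not counted.

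Nuclear and translation factors were mixed, beside the 19.2% of all short genes that had a site. Both short TAF and Mediator genes were bound, TAF7 with 10 sites and MED11 with 6. UTP3, of the small-subunit processome, had 11 and RRS1 had 4, while NOP10, with a score of 225, and NPM3 had lone sites, in a list with 5 of 6 bound. Both short Sm and LSM genes had sites, LSM10 with 7 and SNRPD2 with 2. SRSF8 had 10, SRSF5 had 3 and SRSF2 a lone site among 8 short SR and hnRNP genes. EIF1, which guards start codon choice, had 6 sites with a top score of 235 among 4 bound of 8 short translation factor genes. EIF3G had 2, and EEF1B2 and EIF1B had 1 each. In the proteasome list 3 of 9 were bound, PSMG3 with 3 sites and PSMC5 and PSME1 with 1 each, and in the kelch and BTB list KBTBD7 and KCTD11 (3 sites) were 2 of 4. No short gene belonged to the MYC and E2F list.

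**Figure D5:**
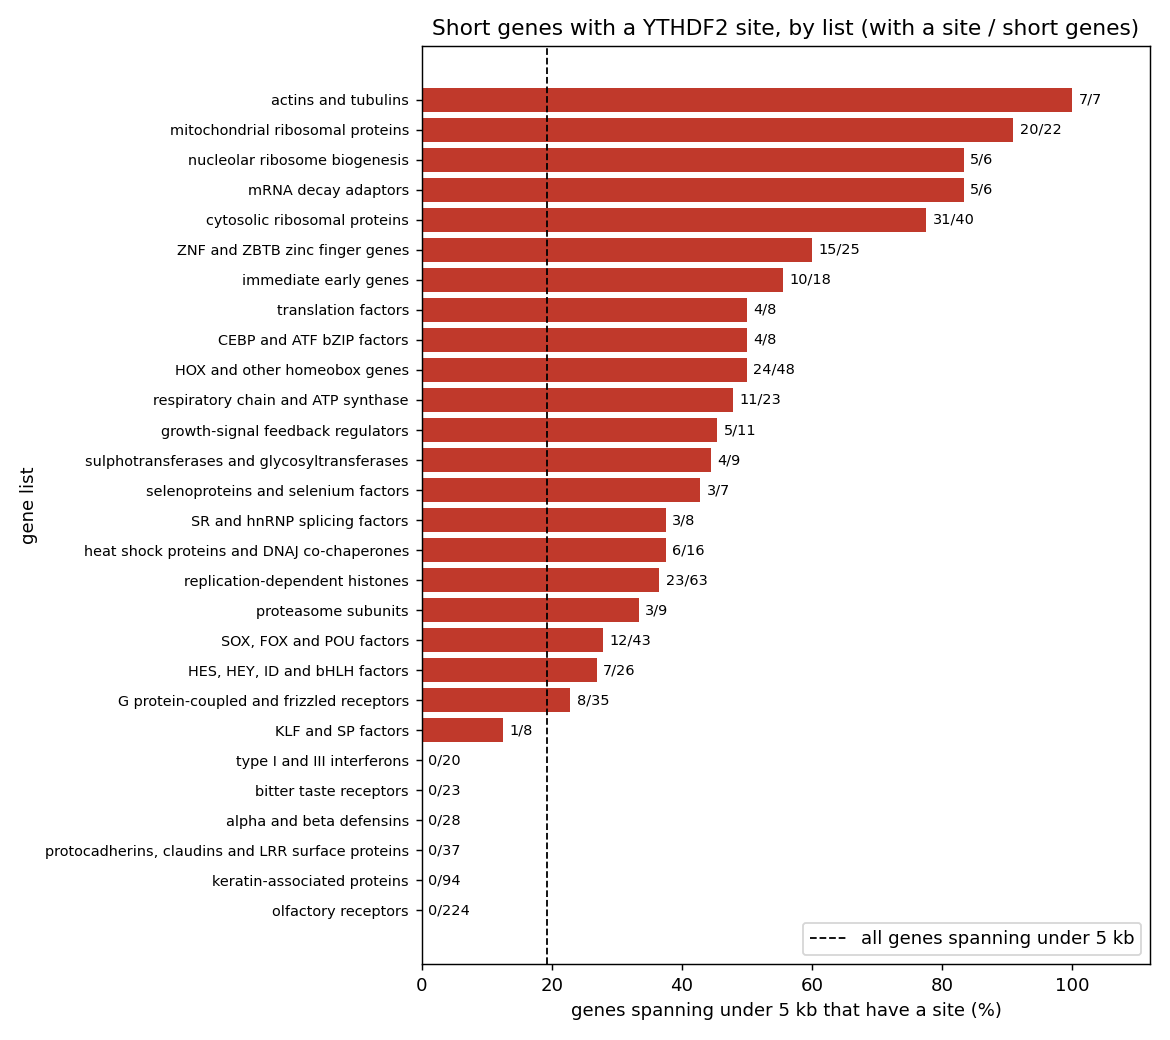
Percentage of the genes spanning under 5 kb that have a site, for the lists with 6 or more short genes except small GTPases, with the counts beside the bars. The dashed line is the 19.2% of all such genes; mitochondrial ribosomal protein genes reach 90.9%, and 5 sensory, keratin-associated and immune families and the protocadherin, claudin and LRR list are at 0, with sites in overlaps of genes not counted.

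The lists were drawn up with earlier results of these data known, and shares above 19.2% are descriptions. RNA levels in HEK293T, which would bear on whether a gene can be bound at all, were not used.

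The limit of 5 kb falls at no visible break. Just inside it were ZIC2 with 6 sites at 4.98 kb, ZNF296 with 1, PRDX2 with 3 and DNAJB9 with 4, and just outside it CDKN1B with 6 sites at 5.00 kb, C1orf216 with 5, RPL21 with 2 and ZNF32 with 5. Their highest scores ran from 4.66 to 91.4 inside and from 8.74 to 98.4 outside.

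The list gives some positions on 2 rows, and by row order it falls into a shorter and a longer part whose meaning is not labelled. Of the members 458 were on 2 rows (18.9%, 17.4 to 20.5), against 14.5% of the sites in genes of 5 kb or more (14.1 to 14.9). The score in the longer part was the higher in 321 of those 458. In genes of 5 kb or more it was the higher in 3378 of 4831, a similar share. Spearman rho between the scores in the shorter and longer parts was 0.37 over the 458. It was 0.24 in genes of 5 kb or more. Members were 8.16% of the assigned sites of the shorter part and 6.73% of the longer part. Of members in the shorter part 57.2% lay past the midpoint of the span, against 65.5% in the longer part. The shorter part was also the lower in genes of 5 kb or more, at 72.6% against 76.0%.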

How the data were processed

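The deposited list has 43178 rows of 1 nt, each with a strand and the authors' score on an unstated scale, and 0 columns of single samples. Tools listed in the submitters' processing notes, without roles, are bedtools 2.27.1, UMI-tools 1.0.0, STAR 2.7.3a and FastQC 0.11.8, with build GRCh38.p12. For the site caller and the joining of replicates, the sources used here give nothing.

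A position on 2 rows was counted once, at its higher score. Genes were the 19932 protein-coding genes of a RefSeq table on GRCh38.p14, without 105 readthrough genes. Strand came from the RefSeq promoter table for 487 of the 615 bound short genes and from the majority of a gene's own positions for 128. Of the positions, 1744 in several genes, 30 on the opposite strand and 112 in no gene were left out. Positions are counted from 1. Intervals are exact binomial (Clopper-Pearson), or from order statistics for medians, at 95%. No test was run, since no value belongs to a sample.

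The members and lists were chosen with earlier results of these data known. Named genes are the 12 richest in sites, the 12 holding the top scores, the 8 densest with at least 5 sites, up to 4 per list, the 4 on each side of the span limit, the 4 nearest each gene end and the 4 with the longest chains. Genes shown for their sequence fall outside this rule, and some genes it names are not reported here. In simulated sites that included 400 short genes, 100% of assigned sites went to their own gene. That 100% is fixed, since each site was drawn inside its gene and only positions in exactly 1 gene were assigned. The simulation used genes of known strand only, so it did not cover strands set by majority. Python 3.11.15, pandas 2.3.3 and scipy 1.17.1 were used. Alternatives were span limits of 4 and 6 kb, score and site-number filters, merging within 50 nt, the lower score, leaving out gene families with close copies and, added after seeing the data, the longer part of the list alone.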

Additional observations from a re-analysis of the deposited data

How the results depend on the processing

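Sites numbered 1593 with a span limit of 4 kb and 1359 with scores at or above the list median, and genes 347 with 3 or more sites required. The members' share of assigned sites was 4.46% and 8.99% at limits of 4 and 6 kb, 7.61% among higher scores, 6.49% with 3 or more sites and 6.43% without gene families with close copies. Median sites per gene were 2 among higher scores, 2 after merging and 5 with 3 or more sites. Median sites per kb were 1.18 and 0.849 at limits of 4 and 6 kb, 0.717 among higher scores, 0.839 after merging and 1.68 with 3 or more sites. A neighbour within 50 nt was found for 24.1% of members among higher scores and for 36.1% with 3 or more sites, and 27.4% of members were on 2 rows among higher scores. The members' median percentile was 79.8 among higher scores and 61.0 after merging, against 74.6 and 52.2 in genes of 5 kb or more. It was 57.6 in the longer part and 55.5 with the lower of 2 scores, against 49.6 in genes of 5 kb or more under each. The share past the midpoint stayed between 63.3% and 65.5% under all 7 alternatives that can change it, below the 75.4% to 76.0% of genes of 5 kb or more where that was recomputed. Of the 50 short genes with 10 or more sites, 7 had as many among higher scores, 17 after merging and 39 in the longer part. No paired analysis was possible because the list holds no values of single libraries, and depth and replicate error are unknown.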

Other observations

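A further 367 positions lay in a short gene that overlaps another protein-coding gene, and were not members. They touched 116 short genes, of which 93 had no member site, so 22.2% of short genes had a site by either count. RSC1A1, inside the span of DDI2 on the same strand as its sites, had 16 with a top score of 63.4, a number that 3 of the 615 member genes reached. THAP11 had 12 within CENPT, with a top score of 170, CSTF2T had 11 within PRKG1, and H2AX, the histone variant of DNA damage signalling, had 8 within DPAGT1 with a top score of 251. HASPIN, a mitotic histone kinase, had 14 within ITGAE, where its strand was not used. Which gene of each pair these sites belong to was not tested. These genes were picked after their values were seen.

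Another 4 positions lay in a short gene alone but on its opposite strand, a count that is partly fixed, since the strand of 128 bound short genes was set by the majority of their own positions. They were 2 in TMED1 with scores of 34.2 and 1.21, 1 in CCDC107 with 22.3 and 1 in the histone gene H2AC15 with 2.67.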
